A study of Mus musculus with 39 samples.

Results

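A set of 9 genes of mitochondrial fusion, fission and mitophagy was followed in mouse gastrocnemius muscle over 4 weeks of tumour growth: Mfn1, Mfn2, Opa1, Dnm1l, Fis1, Bnip3, Bnip3l, Pink1 and Fundc1. They were chosen by name and matched to the Ensembl identifiers of the count tables, which gave 9 genes of the 46078 listed there. All 9 were among the 14689 genes that passed the filter on low counts.

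Lewis lung carcinoma (LLC) cells, a mouse lung tumour line, had been injected into the hind flank of C57BL/6 mice at 8 weeks of age. Muscle was taken 7, 14, 21 or 28 days later (LLC weeks 1 to 4) and compared with mice that received phosphate-buffered saline (PBS). The libraries analysed numbered 8 for PBS, 8 for week 1, 7 for week 2, 7 for week 3 and 8 for week 4. Wasting of the muscle was evident at week 4, per the design text. The labels give the controls 0 days of tumour development, with no sex and no collection time. Replicate 2 of week 3 was not analysed here.

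Mitochondria in muscle fibres form networks that are remodelled by fusion and fission. Mitofusins join the outer membranes, OPA1 joins the inner membranes, and the dynamin-related GTPase DRP1 constricts the organelle at sites marked by outer-membrane adaptors. Damaged or surplus mitochondria are taken up by autophagosomes, either through the kinase PINK1 and the ubiquitin ligase parkin or through receptor proteins in the outer membrane, among them BNIP3, NIX (encoded by Bnip3l) and FUNDC1. Bnip3 is a textbook target of the hypoxia-inducible factors and of FoxO3 in muscle, and NIX is known for clearing mitochondria from maturing red cells.

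Library depth ranged over 13356756 to 24801565 reads assigned to genes, and levels are given as CPM, counts relative to library size after scaling with trimmed mean of M values. The 10 skeletal muscle markers summed to a median of 142376 CPM in week 4 and 166860 CPM in PBS, and none of them had a count of 0 in a library. The names of the count tables place the libraries on 4 sequencing lanes, and the lanes are spread unevenly over the groups. All 8 PBS libraries were on lanes 5 and 6, whereas 5 week 4 libraries were on lane 2 and 3 on lane 4. Week 4 and PBS therefore shared no lane. Their difference can be set apart from lane only through weeks 1 to 3, which had libraries on lanes of both, in a fit that takes lane to act alike in every group. Weeks 1 and 4 shared lanes 2 and 4. Within weeks 1 to 3, where lane 2 can be set against the other lanes, 24.8% of 13974 genes differed at an edgeR adjusted p under 0.05, 13.5% lower and 11.4% higher on lane 2. Among them were 4 members, Opa1 and Dnm1l higher and Fis1 and Pink1 lower. Some libraries stood apart in other ways: PBS replicate 1 had a summed macrophage-marker level of 1043 CPM, against a PBS median of 118 CPM, and week 3 replicate 6 had an erythroid-marker sum of 14766 CPM, against a week 3 median of 1873 CPM. Week 3 replicate 1 had the lowest skeletal muscle sum of the 38 libraries, 63007 CPM. PBS replicate 1 was also the lowest PBS library in CPM for Mfn1, Mfn2, Opa1, Bnip3, Pink1 and Fundc1, so it sets the lower end of their PBS ranges.

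The promoters of 4 members are shown because these members differed between weeks 4 and 1: Bnip3 upwards, and Fundc1, Mfn1 and Mfn2 downwards. Each sequence is the RefSeq window from 250 bases before to 50 bases after the transcription start in GRCm38.p6, read 5′ to 3′ on the gene's own strand. The Bnip3 window is chr7:138909457-138909756 on the minus strand, Fundc1 is chrX:17571958-17572257 on the minus strand, Mfn1 is chr3:32529232-32529531 on the plus strand and Mfn2 is chr4:147904649-147904948 on the minus strand. The Fundc1 window lies wholly inside the Ensembl gene, whose 5′ end is at 17572325, so it does not cover the region before that end. Capitals mark the core of the hypoxia response element, ACGTG or GCGTG on either strand.
Bnip3: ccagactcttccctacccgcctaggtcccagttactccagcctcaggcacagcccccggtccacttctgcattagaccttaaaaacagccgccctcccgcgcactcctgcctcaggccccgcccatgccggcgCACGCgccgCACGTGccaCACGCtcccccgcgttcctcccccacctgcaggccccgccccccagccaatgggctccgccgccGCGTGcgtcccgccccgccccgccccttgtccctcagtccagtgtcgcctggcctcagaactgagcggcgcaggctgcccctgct
Fundc1: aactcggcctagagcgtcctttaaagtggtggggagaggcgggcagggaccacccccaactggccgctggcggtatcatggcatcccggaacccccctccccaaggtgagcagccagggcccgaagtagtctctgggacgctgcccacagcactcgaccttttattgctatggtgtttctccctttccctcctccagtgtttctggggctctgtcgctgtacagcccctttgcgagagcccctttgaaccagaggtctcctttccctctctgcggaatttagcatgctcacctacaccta
Mfn1: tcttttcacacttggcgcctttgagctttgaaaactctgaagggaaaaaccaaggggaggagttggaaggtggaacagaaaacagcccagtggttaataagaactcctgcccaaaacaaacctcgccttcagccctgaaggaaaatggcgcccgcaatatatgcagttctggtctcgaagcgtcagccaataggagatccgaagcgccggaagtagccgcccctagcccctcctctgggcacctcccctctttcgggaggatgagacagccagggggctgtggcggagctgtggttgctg
Mfn2: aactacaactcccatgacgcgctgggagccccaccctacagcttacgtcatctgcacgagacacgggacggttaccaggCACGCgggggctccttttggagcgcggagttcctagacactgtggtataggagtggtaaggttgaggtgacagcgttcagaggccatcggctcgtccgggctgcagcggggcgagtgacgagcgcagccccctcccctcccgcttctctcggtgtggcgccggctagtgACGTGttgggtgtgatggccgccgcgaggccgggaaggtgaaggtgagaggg

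Both strands were searched in every window. Mfn2 has 3 starts in the table, and Fis1 and Dnm1l 2 each, of which 1 was used. The Bnip3 window held 5 cores, of which a pair overlap in the palindrome CACGTG. The Mfn2 window held 2 cores, while the Mfn1 and Fundc1 windows held 0. For Fundc1 this refers to sequence inside the gene, and the region before the gene's 5′ end was not searched. At least 1 core was present in 43.8% of 32851 mouse promoter windows of this length, and 5 or more in 1.66%. Of the 8 members with a window in the table, Fis1, Dnm1l and Pink1 had 1 core and Opa1 had 0. The FoxO motif GTAAACA, found in 3.65% of all windows, was in 0 of the 8. The NRF1 core GCGCATGC, found in 2.71% of all windows, occurred at 2 overlapping positions in the Opa1 window. The nuclear receptor motif AAGGTCA was in 4.72% of all windows and in 0 of the 8, and the E-box CACGTG was in 7.15% of all windows and in Bnip3 alone among the 8. These are matches of letters, and binding was not measured.

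The members spanned a wide range of abundance when counts were divided by exon length. In PBS muscle the median level per kilobase was 274 CPM for Pink1, 109 CPM for Bnip3, 97.5 CPM for Mfn2, 44.4 CPM for Fis1 and 36.1 CPM for Mfn1. Bnip3l followed at 21.8 CPM per kilobase, Opa1 at 16.3, Dnm1l at 13.5 and Fundc1 at 11.5. Pink1 lay above every other member in all PBS libraries, with a lowest value of 176 CPM per kilobase against a highest value of 139 for Bnip3. The ranges of Bnip3 and Mfn2 overlapped in PBS, as did those of Fis1 and Mfn1, of Bnip3l and Opa1, of Opa1 and Dnm1l, and of Dnm1l and Fundc1. In week 4 the order by median was Pink1, Bnip3, Mfn2, Mfn1, Fis1, Bnip3l, Opa1, Dnm1l and Fundc1, which differs from the PBS order in the places of Fis1 and Mfn1. In weeks 1 and 2 the median of Mfn2 per kilobase, at 112 and 109 CPM, was above that of Bnip3, at 99.5 and 97.7 CPM.

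**Figure D1:**
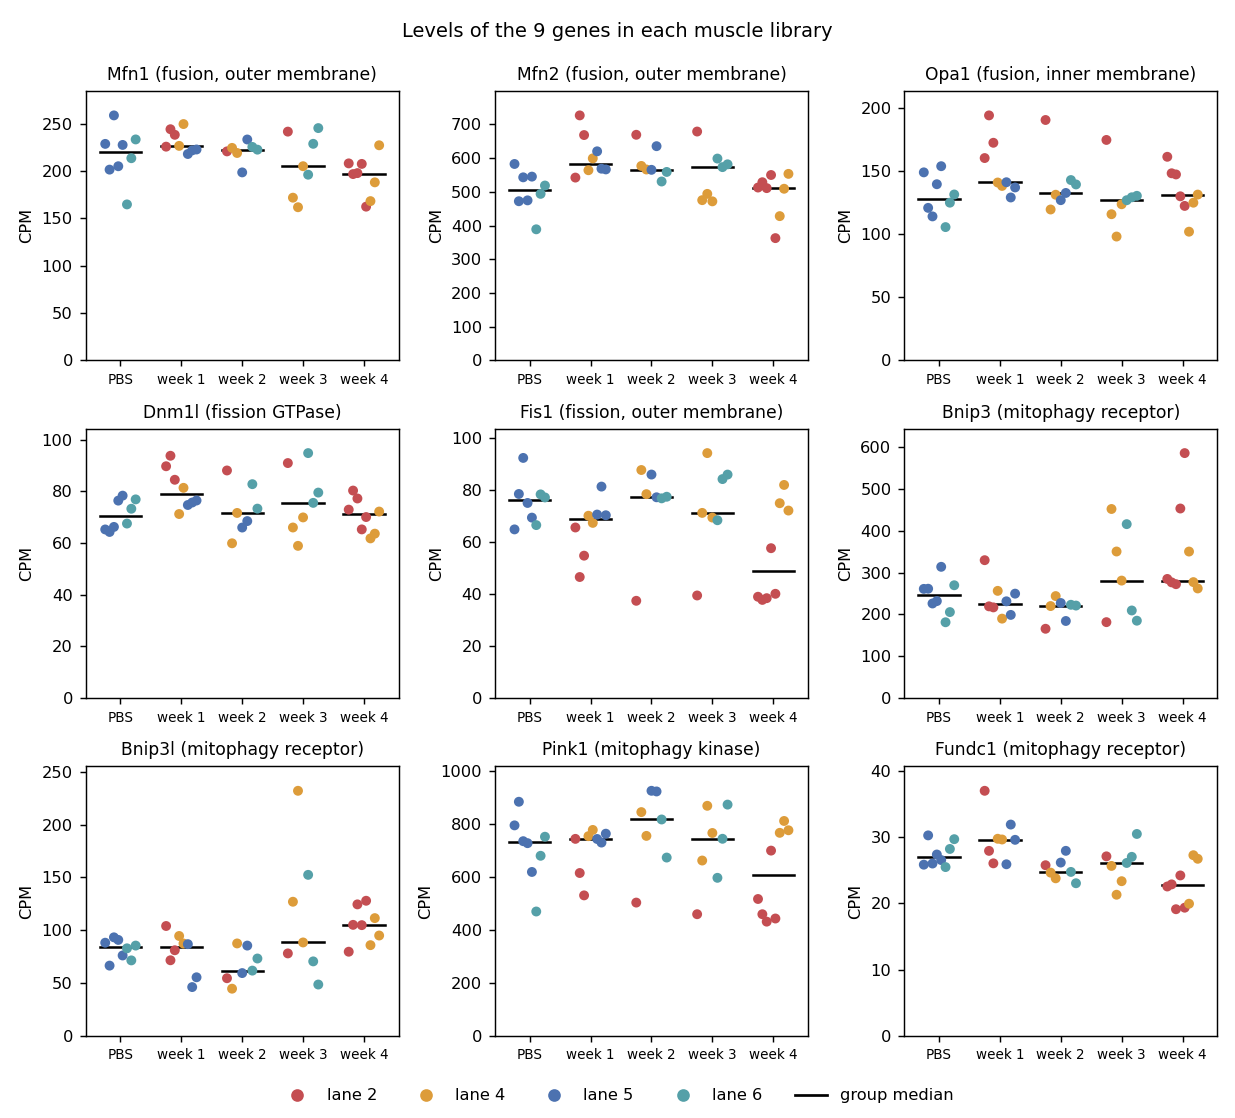
CPM of the 9 genes (vertical axes, each from 0) in the 38 libraries by group; each point is 1 library, coloured by sequencing lane, and the line is the group median. Bnip3 in week 4 lies between 262 and 586 CPM and Fundc1 between 19.1 and 27.3 CPM, while the week 4 libraries of Fis1 split by lane into 37.8 to 57.7 CPM on lane 2 and 72.2 to 82.0 CPM on lane 4.

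Bnip3 and Bnip3l, which encode mitophagy receptors, had higher median levels in week 4 than in PBS and weeks 1 and 2. In week 3 their ranges overlapped with week 4. Bnip3 (ENSMUSG00000078566) lies on the minus strand at chr7:138890836-138909519 of GRCm38. It ranged over 181 to 314 CPM in PBS with a median of 247, over 190.0 to 330.0 CPM in week 1 with a median of 225, and over 166 to 244 CPM in week 2 with a median of 221. It then covered 182 to 453 CPM in week 3 with a median of 281 and 262 to 586 CPM in week 4 with a median of 281. The 8 week 4 libraries all lay above the PBS median and 3 of them above the PBS range, so the groups overlapped. All 8 lay above the whole range of week 2.

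Across all genes, edgeR's quasi-likelihood test with Benjamini-Hochberg adjustment called 29.4% of 14689 genes at week 4 against PBS, 15.3% higher and 14.1% lower. By that test 3 of the 9 members were called there, 1 higher and 2 lower, a share close to the background. Bnip3 was 1.42-fold higher in week 4 than in PBS (log2 fold change 0.50 ± 0.18 SE, adjusted p = 0.0293), averaging 346 ± 116 CPM in week 4 and 244 ± 41.5 CPM in PBS (SD, n = 8 each). Against week 1 Bnip3 was higher by 0.55 ± 0.18 on the log2 scale (adjusted p = 0.0238), with 8 of 8 week 4 libraries above the week 1 median. Against week 2 it was higher by 0.70 ± 0.18 (adjusted p = 0.0070 by the same test). Against week 3 the log2 difference was 0.22 ± 0.18 (95% interval -0.15 to 0.59), which did not pass the test. Its sign changed to -0.10 without the lane 2 libraries. Within lane 4, Bnip3 averaged 297 CPM in 3 week 4 libraries and 361 CPM in 3 week 3 libraries.

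The 2 highest week 4 libraries carried part of the Bnip3 difference: replicates 4 and 5, both on lane 2, had 454 and 586 CPM, while the other 6 lay between 262 and 351 CPM. Replicate 5 also had the lowest muscle-marker sum of week 4, 106029 CPM. Without replicate 5 the log2 fold change over PBS was 0.35 (edgeR adjusted p = 0.12) and over week 1 it was 0.39 (edgeR adjusted p = 0.11). Leaving out PBS replicate 1, PBS replicate 2 or week 4 replicate 4 also ended the call against PBS, and leaving out week 4 replicate 4 ended it against week 1; the call against week 2 passed in all 15 such fits. By limma voom the value over PBS was 0.31 (adjusted p = 0.087). Within lane 2 the difference of mean log2 CPM between week 4 and week 1 was 0.51, and within lane 4 it was 0.42.

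Bnip3l (ENSMUSG00000022051, chr14:66985239-67008877, minus strand), which encodes NIX, was measured with some uncertainty, since the processed pseudogene Bnip3l-ps also received 32 to 236 counts per library and reads may be split between them. Bnip3l had 79.6 to 128 CPM in week 4 with a median of 105, against 66.4 to 93.2 CPM in PBS with a median of 84.1. In week 1 it ranged over 46.1 to 104 CPM with a median of 83.9. Of the 8 week 4 libraries, 6 were above the PBS range, yet the log2 fold change of 0.35 ± 0.20 did not pass the test across all genes (adjusted p = 0.19), while a fit of those 2 groups alone gave 0.34 (edgeR adjusted p = 0.0286). Against week 2, which ranged over 44.6 to 87.5 CPM, Bnip3l was 1.57-fold higher in week 4 (log2 fold change 0.65 ± 0.21, edgeR adjusted p = 0.0260). That call was lost without week 2 replicate 4 or without week 4 replicate 3 or 5, with a highest adjusted p of 0.064.

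In week 3, Bnip3l ranged over 48.5 to 232 CPM, the widest spread of any group for this gene. Its highest library, replicate 6, was also the one with the erythroid sum of 14766 CPM, and the library with the next highest Bnip3l, replicate 1 at 152 CPM, was on another lane and had an erythroid sum of 2401 CPM and the lowest muscle-marker sum, 63007 CPM. The week 3 difference over PBS was 0.48 ± 0.21 on the log2 scale (edgeR adjusted p = 0.39) and 0.20 without replicate 6. Of 8 erythroid markers tested, 8 were called higher in week 3 than in PBS and 5 in week 4. Over all genes, 0.34% were called higher in week 3 and 15.3% in week 4. The summed erythroid level ranged over 730 to 3413 CPM in week 4, 345 to 14766 CPM in week 3 and 231 to 1271 CPM in PBS. The rise was not shared by all libraries: week 3 replicates 3, 4 and 8 lay below the PBS median of 641 CPM. Week 4 replicates 1, 4, 6 and 8 lay within the PBS range. Of the 9 erythroid markers, Rhag was at 0 in 27 libraries and Epb42 in 13, and the other 7 had counts in every library. The part of blood cells in the Bnip3l level was not tested, and in bulk muscle a change in cell numbers cannot be told apart from a change in RNA per cell. Among 9061 genes compared over the 38 libraries, the 3 whose standardised log2 profile was nearest to Bnip3l were Tent5c, Mkrn1 and the beta-globin gene Hbb-bs, at root mean square distances of 0.67, 0.67 and 0.70 SD.

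**Figure D2:**
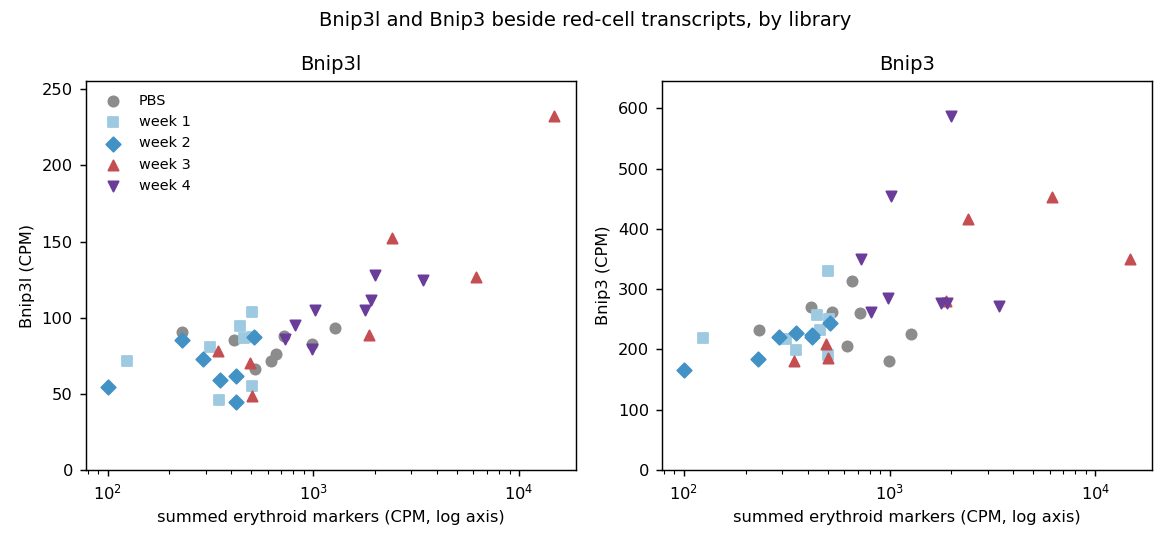
Bnip3l (left) and Bnip3 (right) in CPM against the summed CPM of 9 erythroid markers (logarithmic horizontal axis) in 38 libraries, with symbols by group. The week 3 library at 14766 CPM of erythroid transcripts holds the highest Bnip3l value, 232 CPM, while the highest Bnip3 value, 586 CPM, is in a week 4 library.

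Fundc1 (ENSMUSG00000025040, chrX:17556564-17572325, minus strand), the third outer-membrane receptor, was lower in week 4. Its level was 19.1 to 27.3 CPM in week 4 with a median of 22.7, against 25.5 to 30.3 CPM in PBS with a median of 27.0. Of the 8 week 4 libraries, 6 were below the whole PBS range and 7 below its median. Fundc1 was 1.21-fold lower than in PBS (log2 fold change -0.27 ± 0.08, edgeR adjusted p = 0.0129), and the call passed in all 16 fits that left out 1 library, with an adjusted p between 0.0037 and 0.038.

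Fundc1 was also lower in week 4 than in week 1, in which levels ran over 25.9 to 37.0 CPM with a median of 29.6. All 8 week 4 libraries were below the week 1 median and 6 below its range. The log2 fold change was -0.39 ± 0.08 (edgeR adjusted p = 0.0013), and it too passed in all 16 fits without 1 library. With only the libraries of lanes 2 and 4 and a term for lane, it was -0.42 (edgeR adjusted p = 0.0187). Without the lane 2 libraries it was -0.26 and did not pass (edgeR adjusted p = 0.345). Week 2 ranged over 23.1 to 28.0 CPM with a median of 24.8 and week 3 over 21.3 to 30.5 CPM with a median of 26.1, and week 4 did not pass the test against either. Within lane 4 alone, 3 week 4 libraries averaged 24.7 CPM and 3 week 3 libraries 23.4 CPM.

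The balance between the receptors was compared within libraries. The ratio of Bnip3 to Fundc1 per kilobase had a median of 14.0 in week 4, over a range of 10.2 to 31.5, against a PBS median of 9.0 over a range of 7.39 to 12.3. Its medians were 8.70 in week 1, 9.27 in week 2 and 12.5 in week 3, where it ranged over 6.30 to 18.3. Both genes were called in opposite directions at week 4 against PBS, groups that share no lane, so this ratio is not a separate result. The ratio of Bnip3 to Bnip3l was 5.40 in week 4 and 4.98 in PBS at the median, with overlapping ranges of 3.73 to 7.81 in week 4 and 3.73 to 7.04 in PBS.

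Pink1 (ENSMUSG00000028756, chr4:138313409-138326307, minus strand), the kinase that accumulates on depolarised mitochondria, had 431 to 812 CPM in week 4 with a median of 609, against 470 to 885 CPM in PBS with a median of 732. Its medians were 744, 818 and 745 CPM in weeks 1, 2 and 3. The log2 fold change of -0.21 ± 0.15 did not pass the test (95% interval -0.51 to 0.10, edgeR adjusted p = 0.30), whereas limma voom gave -0.44 (adjusted p = 0.0053). Its week 4 libraries separated by lane: 5 on lane 2 averaged 510 CPM and 3 on lane 4 averaged 786 CPM. Within weeks 1 to 3, lane 2 libraries were also lower in Pink1 than the others, at a log2 difference of -0.47 ± 0.12 (edgeR adjusted p = 0.0053, 5 against 17 libraries). With a term for lane 2 the week 4 value against PBS turned to 0.09.

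The mitofusins, GTPases of the outer membrane, were lower in week 4 than in week 1 but not detectably different from PBS. Mfn1 (ENSMUSG00000027668) is at chr3:32529465-32579239 on the plus strand and Mfn2 (ENSMUSG00000029020) at chr4:147873599-147904704 on the minus strand. Mfn2 ranged over 389 to 583 CPM in PBS (median 506), 542 to 727 CPM in week 1 (median 584), 531 to 669 CPM in week 2 (median 566), 472 to 679 CPM in week 3 (median 573) and 363 to 553 CPM in week 4 (median 512). All 8 week 4 libraries lay below the medians of weeks 1, 2 and 3. Of them, 6 lay below the whole range of week 1, and their spread covered most of the PBS range.

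At week 4 against week 1, where 22.6% of all tested genes were called by edgeR, 4 of the 9 members passed, 3 lower and 1 higher. Background shares were 9.7% lower and 12.9% higher. Mfn2 was lower, at -0.30 ± 0.09 on the log2 scale (edgeR adjusted p = 0.0223). Mfn1 was lower too, at -0.25 ± 0.09 (edgeR adjusted p = 0.0366). Mfn1 had 163 to 227 CPM in week 4 with a median of 197, against 218 to 250 CPM in week 1 with a median of 226. For Mfn1, 7 of the 8 week 4 libraries were below the week 1 range. Mfn1 ranged over 165 to 259 CPM in PBS, 199 to 234 CPM in week 2 and 162 to 246 CPM in week 3. Leaving out week 4 replicate 5 took Mfn2 to an adjusted p of 0.061 and left Fundc1 alone called among the members. Mfn1 kept its call in 10 of 16 such fits and lost it without week 4 replicate 3, 5 or 6 or week 1 replicate 3, 5 or 8.

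Early Mfn2 levels did not pass the test against PBS, although all 8 week 1 libraries and all 7 week 2 libraries exceeded the PBS median. The log2 fold changes were 0.27 ± 0.09 in week 1 and 0.22 ± 0.10 in week 2, with edgeR adjusted p-values of 0.43 and 0.57. With only lanes 5 and 6, which hold all PBS libraries, and a lane term, they were 0.16 and 0.22. Week 4 against PBS was at -0.02 ± 0.09 for Mfn2 (95% interval -0.21 to 0.17) and -0.16 ± 0.09 for Mfn1 (95% interval -0.33 to 0.02). Without PBS replicate 1 the values were -0.07 for Mfn2 and -0.20 for Mfn1, neither past the threshold. The pseudogene Gm13156 overlaps Mfn2 on the opposite strand. Reads that fell in more than 1 gene were left out, so Mfn2 could lack reads there if strand was ignored in counting.

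Opa1 (ENSMUSG00000038084, chr16:29579334-29654884, plus strand), the dynamin of the inner membrane, ranged over 102 to 161 CPM in week 4 with a median of 131, against 106 to 154 CPM in PBS with a median of 128. The weeks before covered 129 to 194 CPM in week 1, 119 to 190.3 CPM in week 2 and 98.0 to 175 CPM in week 3, and all groups overlapped. The log2 fold change was 0.04 ± 0.11 (95% interval -0.18 to 0.26). Opa1 was among the members with the largest lane difference, higher on lane 2 than on the other lanes by 0.44 ± 0.07 within weeks 1 to 3 (edgeR adjusted p = 0.00011). Once lane was in the fit, the value against PBS was -0.20 with a term for lane 2 and -0.15 with a term for every lane, neither past the threshold. Against week 1, Opa1 was at -0.18 ± 0.11 without a lane term (adjusted p = 0.22) and at -0.27 with a term for lane 2 (edgeR adjusted p = 0.0160).

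Dnm1l (ENSMUSG00000022789, chr16:16312230-16358959, minus strand), which encodes DRP1, did not differ detectably between week 4 and PBS, at 61.8 to 80.3 CPM in week 4 and 64.3 to 78.3 CPM in PBS. The log2 fold change was -0.01 ± 0.09 (95% interval -0.19 to 0.17). Week 2 covered 59.9 to 88.1 CPM and week 3 58.9 to 94.8 CPM. Against week 1, which ranged over 71.2 to 93.8 CPM, it was -0.20 ± 0.09 (edgeR adjusted p = 0.098). Dnm1l was higher on lane 2 by 0.27 ± 0.09 within weeks 1 to 3 (adjusted p = 0.0236 by edgeR). With lanes 2 and 4 alone and a lane term, the week 4 value against week 1 was -0.28 (edgeR adjusted p = 0.0410).

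Fis1 (ENSMUSG00000019054, chr5:136953275-136966234, plus strand), an outer-membrane adaptor of fission, was the third member called at week 4 against PBS, and its values followed the lane. It had 37.8 to 82.0 CPM in week 4 with a median of 48.9, against 64.9 to 92.4 CPM in PBS with a median of 76.2. The log2 fold change was -0.45 ± 0.17 (edgeR adjusted p = 0.0451), and by limma voom, also without a lane term, it was -0.68 (adjusted p = 0.00019). Of the 8 week 4 libraries, 5 were below the PBS range. Those 5 were on lane 2, at 37.8 to 57.7 CPM, and the 3 on lane 4 had 72.2 to 82.0 CPM. In week 2 and week 3 the single lane 2 library was again the lowest, at 37.4 and 39.5 CPM, and the 3 lane 2 libraries of week 1 averaged 55.7 CPM. Within weeks 1 to 3, lane 2 was lower, at a log2 difference of -0.68 ± 0.12 (edgeR adjusted p = 0.00025). Without lane 2 the week 4 value against PBS was 0.02, and the call passed in 5 of 16 fits that left out 1 library. It was lost without PBS replicate 2, 4, 5, 6, 7 or 8 or week 4 replicate 1, 2, 3, 4 or 5, with a highest adjusted p of 0.10 by edgeR. The genes nearest to Fis1 over the 38 libraries were Hint1, Sem1 and Cops9, at distances of 0.25, 0.26 and 0.28 SD, the smallest distances found for any member.

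**Figure D3:**
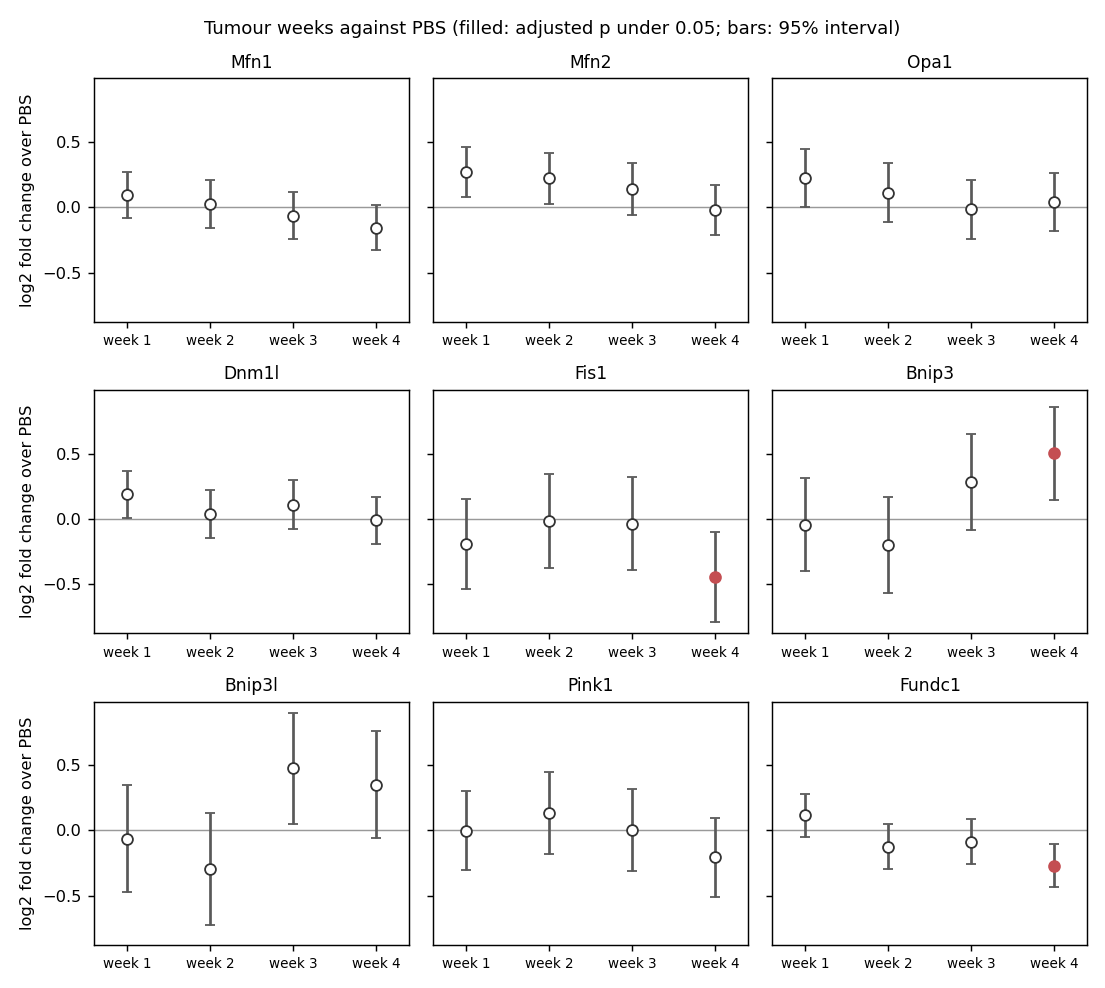
Log2 fold change over PBS of each member at weeks 1 to 4 (horizontal axis), with 95% intervals from the fit over 38 libraries; filled points passed an adjusted p under 0.05. Filled points appear at week 4 for Fis1 at -0.45, Bnip3 at 0.50 and Fundc1 at -0.27, and no member is filled at weeks 1 to 3.

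Before week 4 no member passed the test against PBS by edgeR, DESeq2 or limma voom, in comparisons where edgeR called 0.0613% of all genes in week 1 (0.0477% higher, 0.0136% lower), 0% in week 2 and 0.347% in week 3 (0.34% higher, 0.00681% lower). At an unadjusted p under 0.05 in edgeR there were 3 members in week 1 (Mfn2, Opa1 and Dnm1l, each higher), 1 in week 2 (Mfn2) and 1 in week 3 (Bnip3l). Of the 14689 genes tested, 1274 were under that cut in week 1, 1143 in week 2 and 1579 in week 3. The members named here were chosen after their values were seen. Week 4 against week 2, where 23.6% of genes were called (13.5% higher, 10.1% lower), gave 2 members, Bnip3 and Bnip3l, both higher. Week 4 against week 3, where 3.51% of genes were called (2.27% higher, 1.24% lower), gave 0 members by edgeR and by DESeq2 and 2 by limma voom. There 2 members had an unadjusted p under 0.05 in edgeR, as did 3594 of the 14689 genes. The lowest adjusted p of a member by edgeR was 0.15, for Fis1. A test for any difference among the 5 groups, which called 21.9% of genes, gave 4 members by edgeR: Fundc1 (adjusted p = 0.0081), Bnip3 (0.0198), Bnip3l (0.0313) and Mfn2 (0.0481).

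The counts differed with the treatment of lane. At week 4 against PBS, 0 members passed with a term for lane 2, where 5.64% of genes were called, 0 with a term for every lane, where 0.633% were called, and 0 without the lane 2 libraries, where 0.894% were called and week 4 kept 3 libraries. The Bnip3 value stayed at 0.49 with a term for lane 2 (adjusted p = 0.13) and was 0.42 with a term for every lane and 0.28 without lane 2. Fundc1 was at -0.25 (adjusted p = 0.083), -0.21 and -0.16 in the same 3 fits, all by edgeR. At week 4 against week 2, a term for lane 2 left Bnip3 called and added Mfn2 at -0.31 (edgeR adjusted p = 0.0377), where 10.8% of genes were called. With lanes 2 and 4 alone 0 members passed there, of 0.985% of genes. The test for any difference, with a term for lane 2, called 11.2% of genes and 2 members, Mfn2 and Fundc1.

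Week 4 and week 1 can be compared within shared lanes. With lanes 2 and 4 alone and a lane term, 14.9% of 15033 genes and 4 of 9 members passed by edgeR, all 4 lower: Fundc1 at -0.42, Mfn1 at -0.30 (adjusted p = 0.0485), Mfn2 at -0.34 (adjusted p = 0.0499) and Dnm1l at -0.28. Bnip3 was at 0.49 there with an adjusted p of 0.14. In 7 of 9 members the week 4 minus week 1 difference had the same sign in lane 2 and in lane 4; the exceptions were Fis1, at -0.39 and 0.15, and Pink1, at -0.31 and 0.04. For Mfn2 the differences were -0.39 in lane 2 and -0.24 in lane 4, and for Mfn1 -0.28 and -0.30. Week 3 and week 4 shared lane 4 with 3 libraries each, where Mfn2 averaged 497 CPM in week 4 and 480.4 CPM in week 3, and Mfn1 195 CPM in week 4 and 179.7 CPM in week 3. In those libraries Bnip3 averaged 297 CPM in week 4 and 361 CPM in week 3, and Bnip3l 97.4 CPM in week 4 and 149 CPM in week 3.

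**Figure D4:**
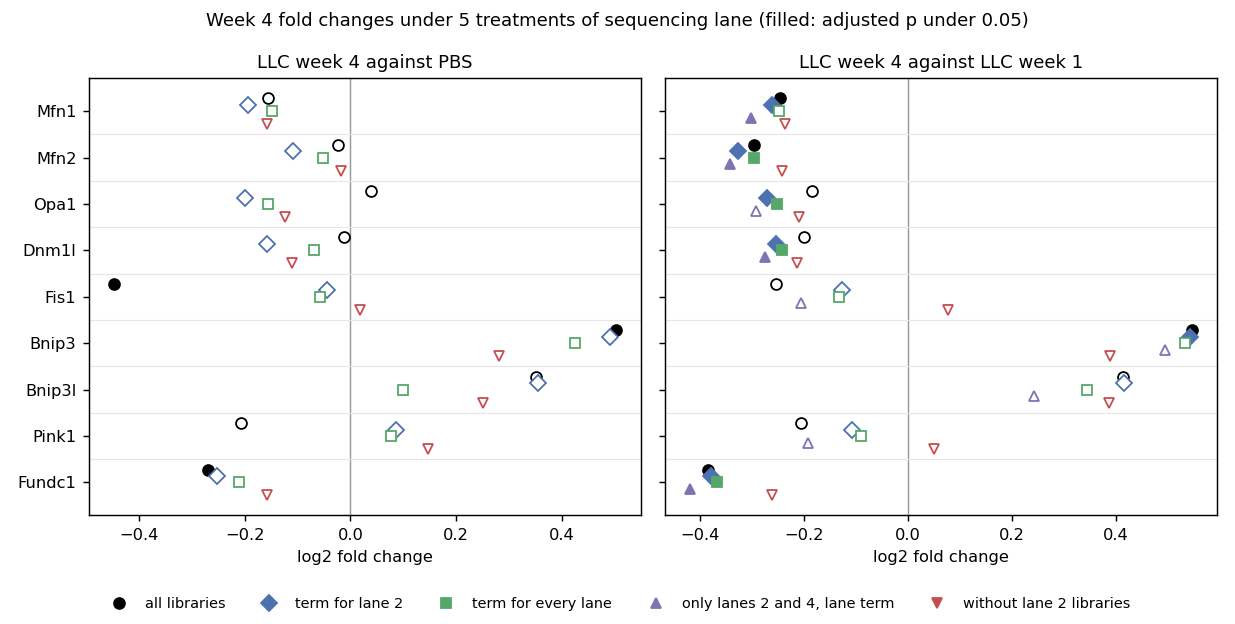
Log2 fold change of week 4 over PBS (left) and over week 1 (right) for each member, with all libraries and with sequencing lane treated in the ways named in the legend; filled symbols passed an adjusted p under 0.05. Against PBS, Fis1 is at -0.45 with all libraries and at 0.02 without lane 2, and Fundc1 is at -0.27 and -0.16 in the same fits. Against PBS, Fundc1 is filled only with all libraries. Against week 1, Fundc1 lies between -0.26 and -0.42, and the value of -0.26, without lane 2, did not pass (edgeR adjusted p = 0.345).

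The authors' deposited tables list only genes past their own threshold. At week 4 over PBS the authors' deposited table holds Bnip3 at 0.48 on the log2 scale (DESeq2, adjusted p = 0.0233) and Bnip3l at 0.35 (adjusted p = 0.0122). The same authors' deposited table holds Fundc1 at -0.25 (DESeq2, adjusted p = 0.0306). Fis1 was not among the 4313 genes of the authors' deposited table for that comparison. For week 4 over week 1 the authors' deposited table lists Mfn1, Mfn2, Bnip3 and Fundc1, the same 4 members called here. For week 4 over week 2 the authors' deposited table lists Bnip3 at 0.66, Bnip3l at 0.61 and also Mfn2 at -0.25 (DESeq2, adjusted p = 0.0492), which did not pass here (edgeR adjusted p = 0.061).

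Other genes of the same processes were counted from lists chosen with earlier results of these data known. Between week 4 and PBS, 7 of 10 tested genes of fusion and cristae structure were lower and 0 higher, against 14.1% lower and 15.3% higher over all genes. Their median log2 fold change was -0.27, against -0.02 over all genes. They included Chchd3, a subunit of the cristae-organising complex MICOS, which averaged 219 CPM in week 4 and 340.4 CPM in PBS (log2 fold change -0.63 ± 0.16). Chchd6, another MICOS subunit, averaged 1.23 CPM in week 4 and 2.67 CPM in PBS (-1.10 ± 0.21). Oma1, the protease that cleaves OPA1, was lower at a log2 fold change of -0.31 ± 0.09, and Samm50, of the outer-membrane sorting machinery, at -0.23 ± 0.08.

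Of 10 fission genes, 5 were lower and 2 higher at week 4 against PBS, beside the same 14.1% lower and 15.3% higher over all genes. Mtfp1, an inner-membrane fission protein, averaged 20.1 CPM in week 4 and 38.1 CPM in PBS (-0.92 ± 0.21), and Mff, the main adaptor that recruits DRP1, 84.2 CPM in week 4 and 106 CPM in PBS (-0.33 ± 0.08). The adaptor gene Mief1 was higher by 0.33 ± 0.10 and the dynamin Dnm2 by 0.29 ± 0.09. Of 6 transport genes 1 passed, the carrier-like gene Mtch2, at a log2 fold change of -0.29 ± 0.11.

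Of 27 other mitophagy genes, 9 were higher, 2 were lower and the rest did not pass, against 15.3% higher and 14.1% lower over all genes. Sqstm1, the cargo receptor p62, averaged 988 CPM in week 4 and 519 CPM in PBS (0.93 ± 0.17). Vcp, a segregase for ubiquitinated proteins, averaged 261 CPM in week 4 and 115 CPM in PBS (1.18 ± 0.25). The cargo receptor Nbr1 was higher by 0.60 ± 0.13 and the autophagy-initiating kinase Ulk1 by 0.68 ± 0.17. The lower genes, named after their values were seen, were Nipsnap2 at -0.43 ± 0.12 and Parl, the inner-membrane protease that cleaves PINK1, at -0.35 ± 0.14. Sqstm1, Vcp, Nbr1 and Ulk1 also serve general autophagy and protein turnover, not mitophagy alone.

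Genes that stand for mitochondrial content were lower as well: 13 of 21 passed at week 4 against PBS and 0 were higher, with a median of -0.39, where 14.1% of all genes were lower. Atp5b, of the ATP synthase, was at -0.55 ± 0.14, Uqcrc2, of complex III, at -0.49 ± 0.13, Ndufs1, of complex I, at -0.43 ± 0.12 and the outer-membrane channel Vdac3 at -0.66 ± 0.18. The summed level of the 21 genes had a median of 9037 CPM in week 4 and 12497 CPM in PBS. Within the 9061 genes compared over 38 libraries, the profiles nearest to Mfn1 belonged to the carrier gene Slc25a12, to Pdha1 of pyruvate dehydrogenase and to Ndufs1, at distances of 0.59 to 0.63 SD.

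**Figure D5:**
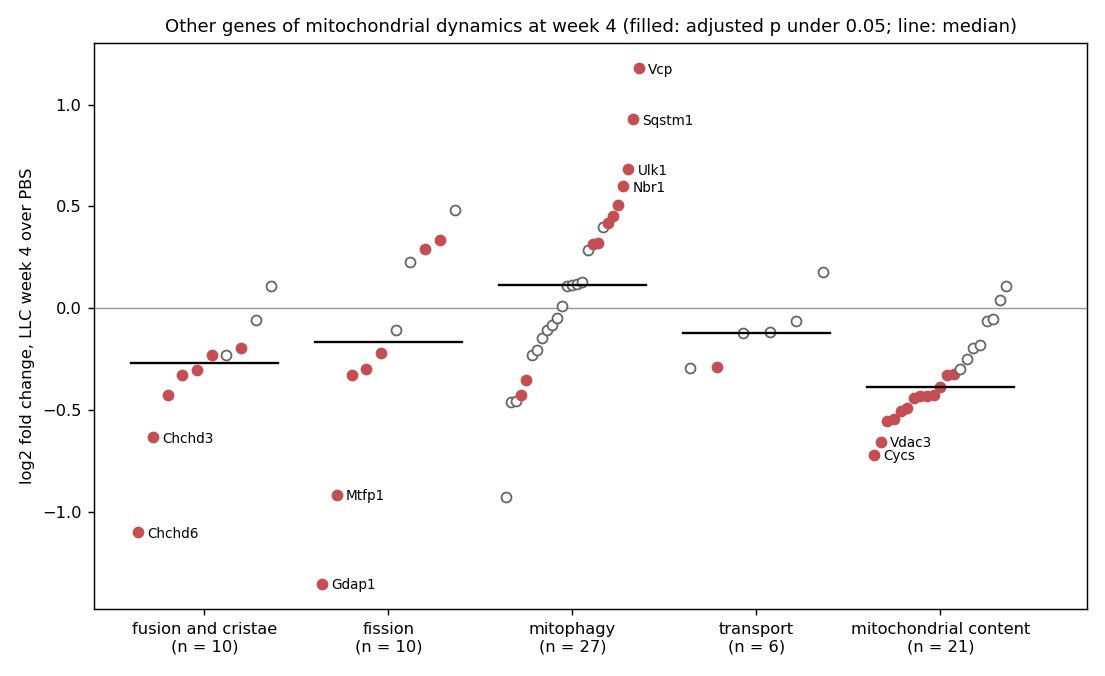
Log2 fold change of week 4 over PBS for the tested genes of 5 lists (points, ordered within each list), with list medians as lines and filled points past an adjusted p under 0.05. Sqstm1 at 0.93 and Vcp at 1.18 stand highest in the mitophagy list, and the fusion and cristae list and the content list have medians of -0.27 and -0.39.

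These list counts also differed with the treatment of lane, as did the share called over all genes. With a term for lane 2, where 5.64% of all genes were called, week 4 against PBS left 1 lower gene of fusion and cristae (Chchd6), 0 of fission, 2 higher genes of mitophagy (Sqstm1 and Map1lc3b), 0 of transport and 1 lower gene of content (Vdac3). With a term for every lane, 0 genes of the 5 lists passed in edgeR, where 0.633% of all genes did. Between week 4 and week 1, with all libraries and 22.6% of all genes called, 4 of 10 fusion and cristae genes and 5 of 10 fission genes were lower, 8 of 27 mitophagy genes were higher and 3 lower, 2 of 6 transport genes were lower and 13 of 21 content genes were lower. With lanes 2 and 4 alone and a lane term, where 14.9% of all genes were called, the numbers were 1 lower for fusion and cristae (Chchd3), 3 lower for fission (Mtfr1, Mtfr1l and Mtfp1), 2 higher (Sqstm1 and Nbr1) and 1 lower (Nipsnap2) for mitophagy, 2 lower for transport (Rhot2 and Trak1) and 10 lower for content. Genes named in this paragraph were chosen after their values were seen. Sqstm1 was at 0.91 there (edgeR adjusted p = 0.0154) and Mtfp1 at -0.83 (edgeR adjusted p = 0.0174).

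Markers of other cells moved with week 4. All 9 tested neutrophil markers were higher than in PBS, with summed levels of 63.8 to 309 CPM in week 4 and 2.55 to 20.9 CPM in PBS. The 10 macrophage markers summed to 129 to 226 CPM in week 4 and 73.1 to 1043 CPM in PBS, 1 higher and 1 lower past the threshold. Of 10 skeletal muscle markers 4 were lower. Camp was at 0 in 20 libraries, Ltf in 19 and Ngp in 18, while no macrophage or muscle marker was at 0 in any. With a term for lane 2, 9 neutrophil and 1 erythroid markers stayed higher against PBS, and 0 muscle markers lower. Against week 1, with lanes 2 and 4 alone and a lane term, 9 of 9 neutrophil, 10 of 10 macrophage and 7 of 8 erythroid markers were higher in week 4, and 2 of 10 muscle markers were lower. The part of these shifts in the members' values was not tested.

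The nearest profiles to the remaining members are given as description over the same 38 libraries, which share lanes and groups. Ugp2, Txnl1 and the proteasome gene Psmc2 were nearest to Bnip3 at 0.46 to 0.52 SD, and Ptp4a2, Synj2bp and Coa5 to Fundc1 at 0.49 to 0.61 SD. Synpo2, Dcaf11 and Agbl1 were nearest to Mfn2, Cux1, Cep68 and Nfix to Opa1, and R3hdm4, Vapb and Atg101 to Pink1. Opa1 itself was the nearest gene to Dnm1l, at 0.71 SD, followed by Tmem182 and Srpk2.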

How the data were processed

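Gastrocnemius RNA was sequenced in 38 libraries, and the deposited read counts per Ensembl gene were used as they stand. The labels' protocols name Trizol extraction and an Illumina TruSeq kit. The submitters' processing notes name FastQC, HISAT2, HTSeq, DESeq2 and GRCm38.p5, with no version of the tools and no strand setting. The authors' deposited tables give a mean signal, log2 fold changes, a Wald score and p-values for genes past their threshold. Rows that name no gene were left out of library sizes (reads in no gene were 3.80% to 10.6% of a library). The labels do not state that replicates are separate animals, and the p-values rest on the spread among the libraries alone, which may be technical. Lanes were read from the names of the deposited count tables; the within-lane differences were added after seeing the data.

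Counts were tested with edgeR 4.0.16 (R 4.3.3): trimmed mean of M values scaling, a filter at a minimum count of 10, group as the only term, all 5 groups in 1 fit, quasi-likelihood tests, and Benjamini-Hochberg adjustment over 14689 genes with a threshold of 0.05. Values after ± are SE for log2 fold changes and SD for levels. Names and exon lengths came from GENCODE M21, which holds 45229 of the 46078 identifiers. Promoters came from RefSeq. The procedure was tested on simulated data. DESeq2 1.42.0, limma 3.58.1, other scalings, filters and lane terms were alternatives. Beside the 9 members, up to 4 genes of smallest p at week 4 against PBS were named per list, and the 3 nearest profiles per member. The members and lists were chosen with earlier results of these data known. No 2 libraries of the same group agreed within sampling noise (lowest chi-square per degree of freedom 14.2). Pairs from different groups were not compared.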

Additional observations from a re-analysis of the deposited data

Results flagged for a closer look

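Among 45 sets of a gene in a group, 4 held a library far from the rest; chance alone marks about 1 in 20 sets. Mfn1 was 199 CPM in week 2 replicate 1, below the other week 2 libraries. Opa1 was 190.3 CPM in week 2 replicate 3 and 175 CPM in week 3 replicate 8, above the others of each week. Fis1 was 37.4 CPM in week 2 replicate 3, below the others. Week 2 replicate 3 and week 3 replicate 8 are the only lane 2 libraries of their weeks.

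The effect at week 4 differed from that at an earlier week, by a test of the difference itself, for 4 members against week 1 and 2 members against week 2. Against week 1 the log2 differences were -0.25 for Mfn1, -0.30 for Mfn2, 0.55 for Bnip3 and -0.39 for Fundc1. Against week 2 they were 0.70 for Bnip3 and 0.65 for Bnip3l.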

How the results depend on the processing

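The number of members called at week 4 against PBS, 3 with all libraries, was 0 with a term for every lane, 0 with a term for lane 2 and 0 without lane 2, and 1 to 3 when single libraries were left out. Against week 1, where 22.6% of all genes were called, it was 4. It was 6 with limma voom, 2 without the low-count filter and 1 to 4 over single libraries. It was 6 with a term for lane 2, where 21.5% of all genes were called, and 0 without lane 2, where 0.591% were. With a term for every lane, 16.9% of all genes and 4 members passed, namely Mfn2, Opa1, Dnm1l and Fundc1. With lanes 2 and 4 alone, 14.9% of all genes and 4 members passed, namely Mfn1, Mfn2, Dnm1l and Fundc1. Bnip3 passed in neither. Against week 2, where 23.6% of all genes were called, it was 2. It was 4 with upper quartile scaling, 5 with limma voom, 0 with a term for every lane, 0 without lane 2 and 1 to 4 over single libraries. With lanes 2 and 4 alone it was 0, where 0.985% of all genes were called. Against week 3, where 3.51% of all genes were called, it was 0, with 2 by limma voom and 0 to 1 over single libraries. The test for any difference gave 4 members, where 21.9% of all genes were called, and 2 with a term for lane 2, where 11.2% were. It gave 0 with a term for every lane, 0 without lane 2 and 1 to 4 over single libraries. Fits without lane 2 hold fewer libraries; otherwise the cause was not tested.

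At week 4 against PBS the values of 5 members changed sign under an alternative; Fis1 was the called one among them. Opa1 was -0.15 with a term for every lane, -0.20 with a term for lane 2, -0.12 without lane 2 and -0.0040 to 0.087 over single libraries. Pink1 was 0.077, 0.087 and 0.15 in the same 3 lane settings, and Fis1 0.019 without lane 2. Dnm1l was 0.00057 without the low-count filter, 0.033 with limma voom and -0.041 to 0.014 over single libraries, and Mfn2 was -0.068 to 0.031 over single libraries. Members called at weeks 1 to 3 against PBS numbered 0 with edgeR, DESeq2 and limma voom. Over all genes, 29.4% were called at week 4 against PBS, and 5.64% with a term for lane 2, 0.633% with a term for every lane and 0.894% without lane 2. No paired analysis was possible because the sample numbers are unique to each library and link no samples across groups. Fundc1 had the fewest counts, 302 to 735 per library.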
